A study of Mus musculus with 2 samples.

Results

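The genes described here are 10 cytosolic adaptors, kinases and ubiquitin ligases that carry the signal of Toll-like, interleukin-1 and RNA-sensing receptors: Myd88, Irak4, Irak2, Irak3, Traf6, Traf3, Tank, Azi2, Tbk1 and Ikbke. They were chosen by gene symbol, with no threshold on a measured value but with earlier results of these data known, and each of the 10 was represented by a single probe set among the 22014 genes on the array. Their signals were read in mouse bone-marrow-derived macrophages (BMDMs), phagocytes grown from marrow for 7 days in medium with 20% L929 fibroblast supernatant. Wild-type (WT) macrophages and macrophages without Oasl1 (Oasl1-/-), both labelled as strain C57BL/6J, were treated for 9 h with poly(I:C), which imitates viral double-stranded RNA, at 5 µg/ml. RNA from 3 samples of each genotype was mixed and put on 1 Affymetrix Mouse Gene 1.0 ST array, so there was 1 array of WT and 1 of Oasl1-/- cells. Both groups had received poly(I:C), and no array of untreated cells was analysed here, so the values show levels after treatment and not induction. With 1 array per genotype no difference could be tested against replicates, and genotype cannot be told apart from culture, mixing or array.

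MyD88 is the adaptor that most Toll-like receptors and the receptors of the interleukin-1 family recruit. It gathers IRAK kinases into a complex that activates TRAF6, a ubiquitin ligase, and from there NF-kB and MAP kinases. Tlr3, which recognises double-stranded RNA in endosomes, and the cytosolic RNA sensors use other adaptors, TICAM1 (TRIF) and MAVS, that engage TRAF3 and the kinases TBK1 and IKK epsilon (the product of Ikbke). These kinases phosphorylate IRF3 and IRF7, the transcription factors of the type I interferon genes. TANK and AZI2 (NAP1) are scaffold proteins that bind TBK1 and IKK epsilon. OASL1 is known to hold back translation of Irf7 mRNA, so the question for these genes is whether the layer between the sensors and the interferon genes carried different transcript levels when Oasl1 was missing.

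Values are log2 signals per probe set, and differences are Oasl1-/- minus WT on that scale. A gene was called detected on an array when its value exceeded a floor, set at the 95th percentile of the negative controls on that array (7.75 for WT cells and 7.68 for Oasl1-/- cells). Of 22014 genes, 6376 (29.0%) were detected in at least 1 genotype and 27.3% in both, and the median difference of the 6376 was -0.04. The deleted gene, Oasl1 (chromosome 5, positions 115373249 to 115387924, NCBIM37 build), still gave 11.13 in Oasl1-/- cells against 12.59 in WT, a difference of -1.46, and how many of its probes lie in the deletion is unknown. All 10 macrophage markers examined, Csf1r and Adgre1 among them, were detected in both genotypes (median difference 0.01, 5 above 0 and 5 below). None of the T cell (5), B cell (5), NK cell (4), dendritic cell (5) and fibroblast (5) markers was detected in either genotype. Of 8 neutrophil markers, Ngp alone was detected, and in Oasl1-/- cells only (6.90 in WT, 7.79 in Oasl1-/-). The summed linear signal of the 8, made up mostly of values under the floor, was 415 in WT and 617 in Oasl1-/-. Its part in the values below was not tested. Of 4 endothelial markers, Kdr alone was detected (10.81 and 11.04).

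Most of the adaptor and kinase transcripts were detected in both genotypes, at nearly equal signals. In RNA of whole cultures, fewer cells with a transcript and less of it per cell cannot be told apart. Of the 10 genes, 9 were detected in WT cells and 8 in Oasl1-/- cells, and those 8 were detected in both. None of the 9 detected genes was 1.5-fold higher or 1.5-fold lower in Oasl1-/-, where 0.361% of the 6376 detected genes were at least 1.5-fold higher and 0.518% at least 1.5-fold lower. None passed 1.2-fold either, where 2.65% of detected genes were higher and 8.91% lower by that much. Nor did any pass 2-fold, where 0.141% were higher and 0.0784% lower. These counts use the measured values. For Irak3, under the floor in Oasl1-/-, the fold is a lower bound of 1.12, so they are settled only for the 8 genes detected in both. The differences of all 10 ran from -0.25 for Irak3 to 0.05 for Ikbke. The median of the 9 was -0.08, against -0.04 over all 6376 genes.

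**Figure D1:**
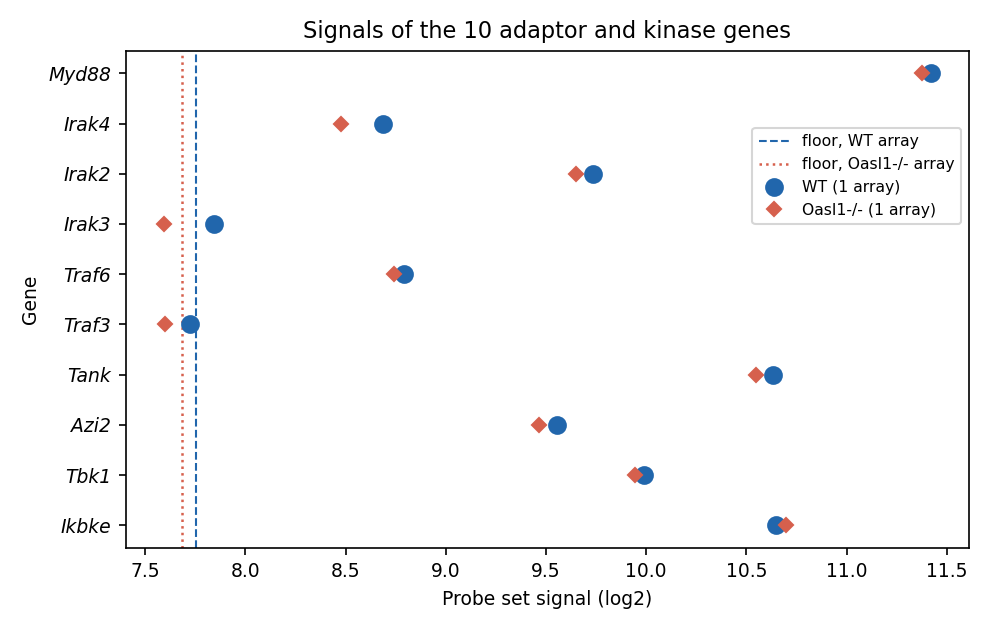
Log2 probe set signal of each gene on the WT array (circles) and the Oasl1-/- array (diamonds), with the floor of each array as a vertical line. The symbols of a pair lie close together, 8 genes stand to the right of both lines, and Irak3 and Traf3 lie next to the lines. Positions of different genes along the axis are not comparable, since each probe set has its own probes.

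Where the promoters of these genes hold motifs for the factors that act in this response, the letters are shown here for orientation. RefSeq promoter windows (GRCm38.p6, only the bases before each annotated start) were found for all 10 genes, 14 windows in all, and both strands were searched. The interferon-stimulated response element, taken as GAAA, any 2 bases and GAAA, was found in 1 of the 14 windows, that of Myd88, and in 2.98% of all 32851 windows. The kappa B consensus was found in 3 of the 14 windows, which belong to Traf3 and Tank, and in 3.90% of all windows. The Tank windows with a match overlap and hold the same site, which is counted in each. In the sequences below, the last 120 bases before the start site are given 5′ to 3′ on the strand of the gene, and capitals mark the matches. They lie at chr9:119340019-119340138 (minus strand, Myd88), chr12:111166250-111166369 (plus strand, Traf3) and chr2:61592977-61593096 (plus strand, Tank).
Myd88: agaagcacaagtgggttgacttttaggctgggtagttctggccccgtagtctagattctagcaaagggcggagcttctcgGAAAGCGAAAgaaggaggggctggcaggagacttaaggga
Traf3: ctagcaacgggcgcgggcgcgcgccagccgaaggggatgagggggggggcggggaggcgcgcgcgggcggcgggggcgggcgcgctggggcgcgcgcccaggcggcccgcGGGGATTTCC
Tank: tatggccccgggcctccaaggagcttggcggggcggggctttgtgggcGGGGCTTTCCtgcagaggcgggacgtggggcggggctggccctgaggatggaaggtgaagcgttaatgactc

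In the Myd88 promoter the response element match lies 40 to 31 bases before the start. The Traf3 match ends at the base before the start site, and the Tank match lies 72 to 63 bases before the start printed here. The other 7 genes had no match to these letters in these windows, from which nothing follows about the factors. Each match is a description of letters and not of a bound site.

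Myd88, the receptor adaptor (NM_010851, chromosome 9, positions 119245052 to 119249158, minus strand, NCBIM37 as are all positions of probe sets here), gave 11.42 for WT and 11.38 for Oasl1-/-. The difference was -0.04, or 1.03-fold, and the values stood above their floors by 3.67 in WT and 3.69 in Oasl1-/-. Of the 552 detected genes with a mean signal within 0.5 of that of Myd88, 66.3% differed by at least as much in either direction. The gene itself is counted in this share, and in each share of genes of like level below. The robust SD of the differences of those 552 genes (the median absolute deviation, scaled to match an SD) was 0.10, so the Myd88 difference was smaller than the ordinary spread between the 2 arrays at its level.

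Of the 8 genes detected in both genotypes, the IRAK family member Irak4 had the largest difference in size. Irak4, the kinase that binds MyD88 first and phosphorylates the other members of the complex (NM_029926, chromosome 15, positions 94374091 to 94398737), gave 8.69 for WT and 8.47 for Oasl1-/-. It was lower in Oasl1-/- by the measured values, with a difference of -0.21, or 1.16-fold. Of 2183 genes of like level, 24.9% differed by as much, and their robust SD was 0.16. Irak4 stood above the floor by 0.93 in WT and by 0.79 in Oasl1-/-, so its difference, unlike that of Irak3, was measured on both sides.

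Irak3, known as IRAK-M, has little or no kinase activity and restrains the MyD88 complex, mainly in monocytes and macrophages (NM_028679, chromosome 10, positions 119578710 to 119638593). Its WT value of 7.84 exceeded the floor by 0.09, and its Oasl1-/- value of 7.59 lay under the floor there, with a margin of -0.09. Its measured difference was -0.25, and because the Oasl1-/- value was not above background the fold is a bound, at least 1.12-fold lower, so its size cannot be ranked against that of Irak4. Irak2, the family member that sustains the signal through TRAF6 (NM_172161, chromosome 6, positions 113588482 to 113645005), gave 9.74 for WT and 9.65 for Oasl1-/-, which differ by -0.08. Of its 1470 neighbours in level, 52.4% differed by as much. The activating members Irak4 and Irak2 and the restraining member Irak3 all had the lower value on the Oasl1-/- array, as had 63.5% of detected genes. The Irak2 difference was smaller than the robust SD at its level (0.13). Irak1, the remaining member of the family and on chromosome X, was 8.74 and 8.71, a difference of -0.03.

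Of the 2 ubiquitin ligases, Traf6 was detected in both genotypes and Traf3 in neither. Traf6, the ligase that joins lysine-63-linked chains downstream of MyD88 (NM_009424, chromosome 2, positions 101518597 to 101541135), gave 8.79 for WT and 8.74 for Oasl1-/-. The difference of -0.05 was exceeded or equalled in size by 75.5% of 2068 genes of like level. Traf3, which links TICAM1 and MAVS to TBK1 and also restrains the non-canonical NF-kB pathway (NM_011632, chromosome 12, positions 112404759 to 112505359), gave 7.72 for WT and 7.60 for Oasl1-/-. Both values lay under the floor of their array, with margins of -0.03 and -0.09, so no fold is given and the measured difference was -0.13. Traf3 is the single gene of the 10 not measured above background on either array, and with the 90th percentile of the negative controls as the floor (7.09 and 6.88) it was above background on both.

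The scaffolds of the TBK1 complex had nearly the same small difference by the deposited values. Tank (NM_011529, chromosome 2, positions 61416640 to 61492228) gave 10.63 for WT and 10.55 for Oasl1-/-, which differ by -0.09. Azi2 (NM_013727, chromosome 9, positions 117949617 to 117973025) gave 9.55 and 9.47, also -0.09. Both folds were 1.06. With a loess trend on signal removed Tank and Azi2 differed by -0.07 and -0.04, and with quantile normalization by -0.09 and -0.05. Of the genes of like level, 45.0% differed by as much as Tank and 52.3% by as much as Azi2. Tbkbp1 (SINTBAD), another scaffold of these kinases, was not detected in either genotype (6.70 and 6.65).

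The kinases that phosphorylate IRF3 and IRF7 were, with Myd88, the least different of the 10 by the deposited values, an order that did not hold for Ikbke after centring (0.09). Tbk1, expressed in most cell types (NM_019786, chromosome 10, positions 120983516 to 121023803), gave 9.99 for WT and 9.94 for Oasl1-/-, which differ by -0.04. Ikbke, which encodes the inducible relative of TBK1 (NM_019777, chromosome 1, positions 133151178 to 133176140), gave 10.65 for WT and 10.70 for Oasl1-/-. Its difference of 0.05 was the single positive value of the 10. Of the genes of like level, 71.8% differed by as much as Tbk1 and 68.7% by as much as Ikbke, so the opposite signs of the pair rest on differences smaller than the robust SD at their level (0.12 and 0.11).

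**Figure D2:**
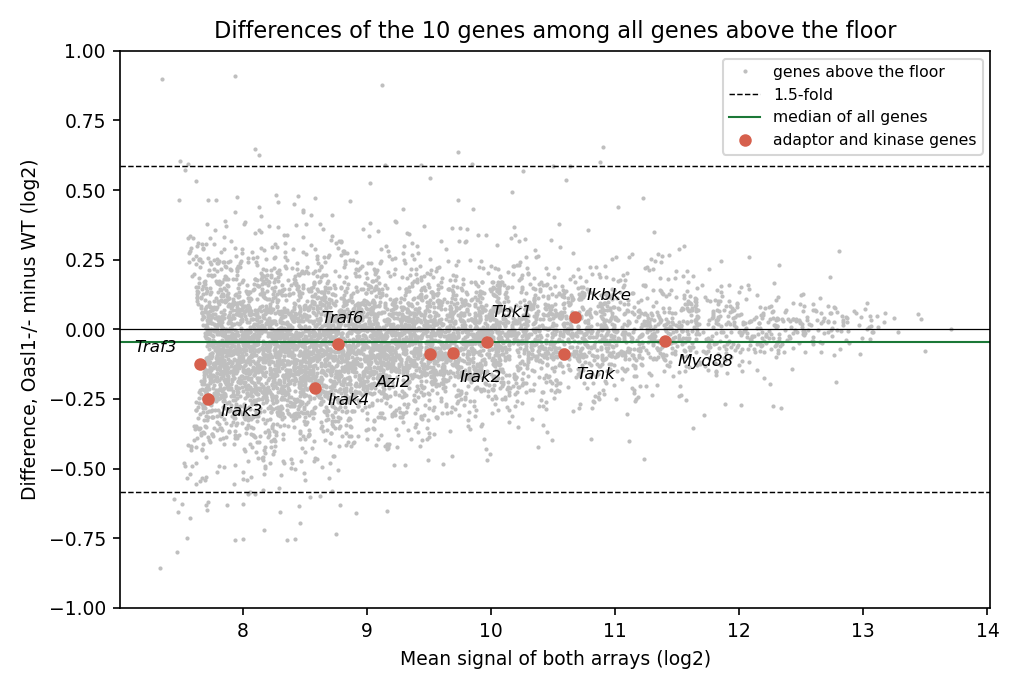
Difference between the arrays (Oasl1-/- minus WT, log2) against the mean signal of both, for detected genes (grey) and the 10 adaptor and kinase genes (red). The dashed lines mark 1.5-fold, the green line the median of all genes (-0.04), and 14 genes with a difference over 1 in size lie outside the axis. All 10 genes sit inside the cloud, with Irak3 and Irak4 lowest and Ikbke highest.

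Set against all detected genes, the 10 differences lay inside the bulk of the distribution. The central 90% of the 6376 genes lay between -0.32 and 0.20, and all 10 fell in that range by measured values. For Irak3 the Oasl1-/- value, and for Traf3 the values on both arrays, lay under the floor. The interquartile range was -0.15 to 0.05, and 8 of the 10 fell in it, the exceptions being Irak3 and Irak4. At a threshold of 1.1-fold, chosen after seeing the data, those same 2 genes were lower and none was higher, where 26.9% of the detected genes were at least 1.1-fold lower and 9.80% at least 1.1-fold higher. A count of 2 of 9 lower is near that background.

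Most of the 10 genes had the lower value on the Oasl1-/- array, as did most detected genes. Of the 10, 9 had a difference below 0, where 46.7% of all 22014 genes had. Among the 9 detected genes 8 did, where 63.5% of the 6376 detected genes did. For 3 genes the sign changed with the scaling of the arrays. After centring on the median gene, 7 of the 10 stayed below 0, with Myd88 at 0.0023 and Tbk1 at 0.0003. Of the 9 detected genes 6 did, where 50.0% of all detected genes did. With a loess trend on signal removed, and with quantile normalization, 8 of the 10 lay below 0. Of the 9 detected genes 7 did in each, against 49.6% and 52.1% of all detected genes. Traf6 moved above 0 in both (0.02 and 0.0009). Irak4, Irak2, Irak3, Traf3, Tank and Azi2 kept a negative sign and Ikbke a positive one under all of these scalings. Irak4 ranged from -0.21 to -0.13 and Irak3 from -0.25 to -0.17.

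**Figure D3:**
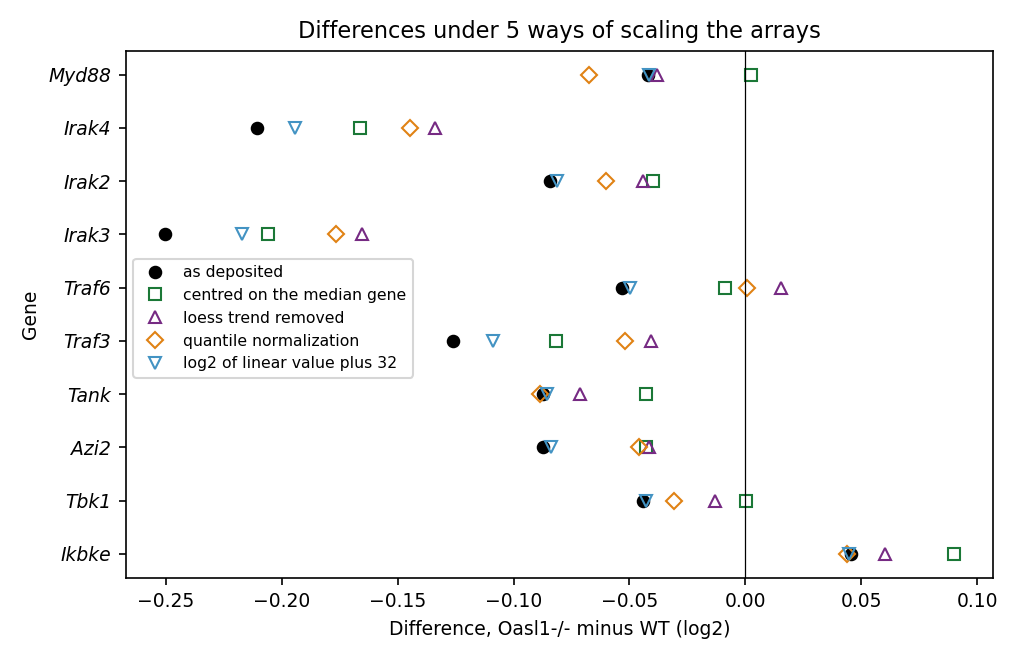
Difference of each gene (Oasl1-/- minus WT, log2) as deposited (black) and after 4 other ways of scaling the arrays (open symbols). The values of Irak4 and Irak3 move toward 0 with the trend removed but stay lowest, while those of Myd88, Traf6 and Tbk1 cross 0.

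Divided by route, the MyD88 side (Myd88, Irak4, Irak2, Irak3 and Traf6) had a median difference of -0.08, from -0.25 to -0.04, with 5 of 5 below 0. The TBK1 side (Traf3, Tank, Azi2, Tbk1 and Ikbke) had a median of -0.09, from -0.13 to 0.05, with 4 of 5 below 0. Traf3, which sets the lower end and is counted below 0, was detected on neither array. Beside these counts stands the 63.5% of detected genes that lay below 0, and they did not hold under each scaling, since Myd88 and Tbk1 lay above 0 with centring and Traf6 with the trend removed or quantile normalization. The medians were close with Traf3 included, and the difference between the sides was not tested. The genes lie on 7 chromosomes and none on chromosome 5, which carries Oasl1. Irak3 and Tbk1 lie 1.34 Mb apart on chromosome 10, Azi2 and Myd88 1.27 Mb apart on chromosome 9, and Tank and Traf6 40.0 Mb apart on chromosome 2. The probe sets of the 10 genes held between 26 and 49 probes each, and the authors' annotation lists 5 of the genes (Ikbke, Irak2, Irak3, Irak4 and Tbk1) under protein serine/threonine kinase activity. Of 182 genes with that annotation that were detected, 0 were at least 1.5-fold higher, 1 was at least 1.5-fold lower, and the median difference was -0.06. Under I-kappaB kinase/NF-kappaB cascade, which lists Azi2, Myd88 and Tank, 19 genes were detected, 3 higher and 16 lower, with a median of -0.10. Over all detected genes 63.5% lay below 0 and the median was -0.04. Under MyD88-dependent toll-like receptor signaling pathway, which lists Myd88, 2 genes were detected, 2 of them lower, with a median of -0.14. In these 2 terms 0 genes were at least 1.5-fold different by measured values. The annotation terms were chosen after the values were seen, and their counts were not repeated under the other scalings.

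Other genes of the same routes were examined in the same way. In 7 lists of pathway genes that hold 73 genes, 43 were detected, of which 12 had a difference above 0 and 31 below. By measured values 0 were at least 1.5-fold different in either direction (0.361% of detected genes were higher and 0.518% lower by that much). At 1.2-fold, 3 were lower and 0 higher, where 8.91% of detected genes were lower and 2.65% higher. Their median of -0.04 equalled that of all genes to 2 decimals.

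On the MyD88 route, 11 of 17 further genes were detected, 3 higher and 8 lower by measured values, with a median of -0.03. After centring the counts turned to 7 higher and 4 lower with a median of 0.01. With the trend removed they were 5 and 6, and with quantile normalization 4 and 7. Tirap, the sorting adaptor that brings MyD88 to the membrane, was detected in WT alone, with values of 7.82 and 7.66 that differ by -0.16. Tollip, an adaptor that restrains IRAK signalling, was 9.18 and 9.33, a difference of 0.15. The interleukin-1 receptor family gave no detected signal. None of its 8 genes examined was detected, among them Sigirr (6.40 and 6.86) and Il1r1 (3.86 and 4.09).

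Of 11 further TRAF family members and partners, 5 were detected, 1 higher and 4 lower, with a median of -0.04. After centring, and after removal of the trend, the counts turned to 3 higher and 2 lower and the median to 0.01. With quantile normalization the counts were 2 higher and 3 lower. Traf1, an adaptor that NF-kB induces and that binds TRAF2, gave 10.10 for WT and 9.76 for Oasl1-/-. Its difference of -0.34, or 1.27-fold, was larger in size than those of the 8 adaptor and kinase genes detected in both genotypes. Of genes of like level, 2.99% differed by as much. Trafd1, a TRAF-type zinc finger protein that restrains innate signalling, was 12.01 and 12.15, a difference of 0.15. Traf2 was 9.34 and 9.31.

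Among the partners of TBK1 and IKK epsilon, 9 of 12 were detected, 1 higher and 8 lower, with a median of -0.08. The counts were 4 and 5 after centring, and 2 and 7 both with the trend removed and with quantile normalization. Irf7, the factor whose translation OASL1 holds back, was 12.48 and 12.19, a difference of -0.28. Of 248 genes of like level, with Irf7 itself counted, 0.806% differed by as much. Optn, a ubiquitin-binding receptor that positions TBK1, was 8.22 and 8.03, a difference of -0.18. Irf3 was 7.95 and 7.81, a difference of -0.14. Of the adaptors that lead to these kinases, Mavs was 8.06 and 7.95, a difference of -0.11, and Ticam1 was not detected in either genotype (7.46 and 7.46).

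All 3 genes of the canonical IKK complex were detected with values lower in Oasl1-/-, and 2 of 3 were lower after centring. Chuk, which encodes IKK alpha, was 8.97 and 8.76, a difference of -0.22, and Ikbkb, which encodes IKK beta, was 9.01 and 8.92, a difference of -0.09. Of 18 genes listed for ubiquitin editing or other regulation of these complexes, 11 were detected, 4 higher and 7 lower, with a median of -0.05. The counts were 5 and 6 with centring, with the trend removed and with quantile normalization. Tnip1, a partner of A20, was 9.46 and 9.12, a difference of -0.33 that 4.12% of genes of like level matched, and Birc2, the ligase cIAP1, was 8.91 and 8.73, a difference of -0.18.

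Of the 7 lists, that of the RNA sensors upstream had the highest median of its detected genes, 0.12. All 4 were detected, 3 with a difference above 0 and 1 below under each scaling plotted above. In the deposited values the lower one was Tlr3 (10.45 and 10.34). Dhx58 (LGP2) was 10.99 and 11.15 and Ddx58 (RIG-I) 11.94 and 12.09, differences of 0.16 and 0.15. At the output of the pathway, Ifnb1 was detected in Oasl1-/- cells alone. Its values of 6.45 and 7.87 differ by 1.41, and set against the WT floor it was higher by a bound of 1.08-fold or more. Ifna4, the other interferon gene listed for the output, was not detected in either genotype (4.49 and 7.63), its Oasl1-/- value lying just under the floor.

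**Figure D4:**
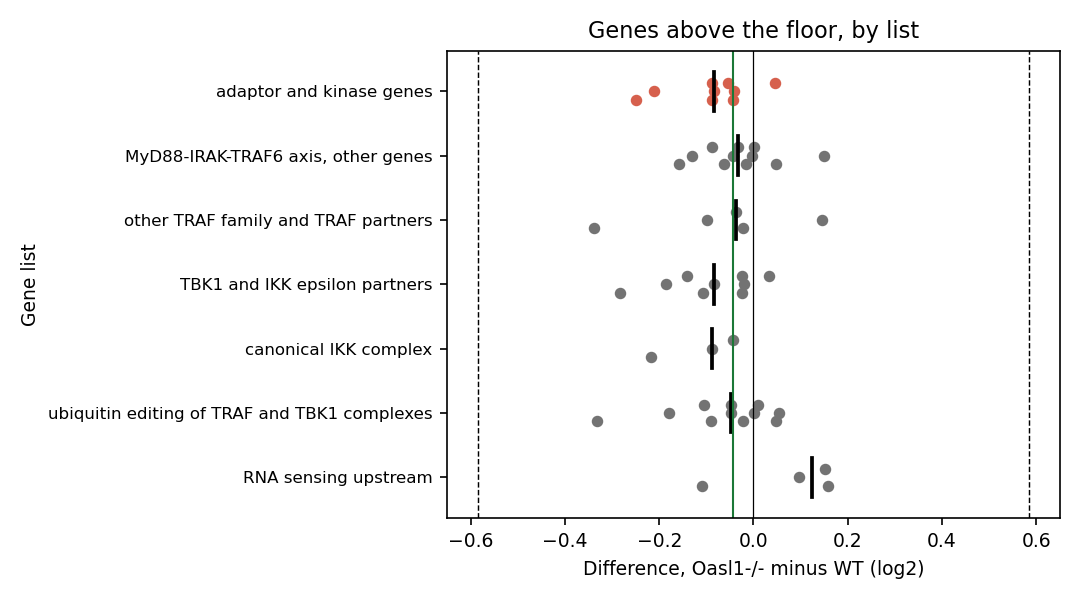
Difference (Oasl1-/- minus WT, log2) of each detected gene in the 10-gene family (red, 9 genes) and in 6 other lists of the same pathways (grey), with the median of each list as a black bar. Dashed lines mark 1.5-fold and the green line the median of all genes, and no point of any list passes 1.5-fold.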

How the data were processed

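The authors deposited log2 values per probe set of 1 Mouse Gene 1.0 ST array per genotype, made with GCOS and RMA per the submitters' processing notes, which give no version. RMA subtracts background, equalises the distributions of arrays and combines the probes of a probe set, and it shrinks differences of dim probe sets. The sources used here do not say whether it was run on the 2 arrays jointly. Mixing 3 RNA samples per genotype removes culture-to-culture variation from view. The second deposited table held identical log2 values, and the authors' log2 ratio equalled Oasl1-/- minus WT. The number of arrays limits the precision.

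Of 35556 probe sets, 25305 carried 1 gene symbol, 2 several and 10249 none. Symbols were updated through RefSeq (GRCm38.p6): 20515 by accession, 1236 by a unique synonym, 1840 by the symbol itself, and 1714 kept the deposited name. Among several probe sets of a gene, the brightest by mean was used. The floor used 5267 intron and antigenomic control probe sets. Positions are those of the deposited table. Its descriptions name the NCBIM37 build, and 92.9% of 2286 positions they give overlapped the probe set. For a gene detected on 1 array, the fold is a bound against the higher of the other array's floor and value.

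No test was made. A further promoter motif that was searched is not reported here. The named genes are the 10 members, Oasl1, Ifnb1, Irf3, Irf7, Ticam1, Mavs, Irak1 and Traf2, and of each pathway list the detected members at least 1.5-fold different or otherwise the 2 with the largest difference. Csf1r, Adgre1, Tbkbp1, Tlr3, Sigirr, Il1r1 and Ifna4 were named after their values were seen, as were the marker genes above the floor and the annotation terms. The members and lists were chosen with earlier results of these data known. Counting was tested on simulated data. Software was pandas 2.3.3 and NumPy 2.4.6 in Python 3.11.15, with statsmodels 0.14.6 for loess and Matplotlib 3.10.9 for plots.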

Additional observations from a re-analysis of the deposited data

How the results depend on the processing

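By measured values, the count of genes at least 1.5-fold different was 0 in both directions with centring, a loess trend removed (span 0.3) and quantile normalization. It was also 0 with log2 of the linear value plus 32, the mean of all probe sets and the second table. The same held with omission of the floor, a floor required on both arrays, and 1.2-fold or 2-fold as the threshold. At 1.1-fold, chosen after seeing the data, 2 genes were lower. With the 99th percentile of the negative controls as the floor (9.83 and 9.73), 4 genes (Myd88, Tank, Tbk1 and Ikbke) were detected in WT and 4 in Oasl1-/-. With the 90th percentile, or the median of all probe sets, 10 were detected in each. The median difference ran from -0.09 without a floor to -0.04 after centring. For single genes, 20 of 20 values with the trend removed or quantile normalization moved by less than the robust SD of genes of like level. That SD is a spread across genes between the same 2 arrays and not between replicates. A value could change sign, as that of Traf6 did, and still move by less than it. Centring moved each gene by the same 0.04, and the second table and the mean of all probe sets could not move them, since the values were identical and each gene has 1 probe set. No paired analysis was possible because each genotype had 1 array, and no replicate could be left out. The distance to the floor limits what can be said of Irak3 and Traf3.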
